A study of Mus musculus with 6 samples.

Results

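S100 proteins are small calcium-binding proteins of vertebrates that carry a pair of EF-hands, helix-loop-helix motifs that hold the calcium ion. Most act as dimers inside the cell, where calcium exposes a surface that docks onto annexins, myosins and other targets, and several are also released and act on receptors such as RAGE and TLR4. S100A4, also called fibroblast-specific protein, is widely used as a fibroblast marker, whereas S100A8 and S100A9 together form calprotectin, an abundant protein of neutrophils that is raised in colitis. The 9 genes described here, *S100a1*, *S100a4*, *S100a6*, *S100a8*, *S100a9*, *S100a10*, *S100a11*, *S100a13* and *S100a16*, were taken by their symbols from the 20327 gene symbols of the tag-count tables. The tables hold 12 symbols of the family, and the other 3 are *S100a7a*, *S100a14* and *S100b*.

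The libraries came from the inflamed colon of C57BL/6 *Il11-Egfp* mice, in which a bacterial artificial chromosome transgene carries *Egfp* inside *Il11*, so that EGFP is made from the transgene. Every mouse was 9 to 15 weeks old and drank 1.5% dextran sulfate sodium (DSS), which injures the colonic epithelium, for 5 days before cells were sorted on day 7. Cells lacking Ter119, CD45, CD31 and EpCAM were separated into EGFP-Positive (IL-11+) and EGFP-Negative (IL-11-) cells, 3 libraries each, and untreated mice were not analysed here. In 5′Tag-seq, tags from the 5′ side of polyadenylated transcripts are counted, and the libraries held 1022851 to 1169817 tags. Levels are given as normalized CPM, tags per 1000000 TMM-scaled tags of the tested genes, a scale on which the floor of 3 tags lies at 2.46 to 3.18.

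Fibroblast transcripts were abundant in both groups, and transcripts of some other cell types differed between them. Tags of *Il11*, the gene used for sorting, numbered 28, 51 and 89 in EGFP-Negative replicates 1, 2 and 3 and 1357, 732 and 2658 in the EGFP-Positive ones, and tags of the reporter transcript may be among them. *Dcn*, which encodes the matrix proteoglycan decorin, stood at 12100 ± 1230 normalized CPM in the EGFP-Negative and 19200 ± 6170 in the EGFP-Positive libraries (SD, n = 3), with a log2 fold change of 0.67 (adjusted p = 0.0462, edgeR's quasi-likelihood test). *Lum*, which encodes the related lumican, stood at 1340 ± 386 and 861 ± 122, with a log2 fold change of -0.64 (adjusted p = 0.0378, edgeR's quasi-likelihood test). Of 8 fibroblast markers, 2 were called higher in IL-11+ cells (*Col3a1* and *Pdpn*), 0 were called lower and 6 were not called, by the criteria given below, where 3.44% of all tested genes were called higher and 6.37% lower. At an unadjusted p below 0.05, 5 markers were higher and 1 was lower (12.2% and 14.5% of all tested genes), and DESeq2 called 2 higher and 0 lower (3.04% and 5.17%). All 8 smooth muscle and pericyte markers were called lower. Of these, *Actg2*, *Cnn1* and *Des* passed the filter only through the EGFP-Negative group, where they were high. Their summed level was 4432, 4815 and 5501 normalized CPM in EGFP-Negative replicates 1, 2 and 3 and 293.6, 332 and 531.2 in the EGFP-Positive ones, with *Rgs5* the most abundant. In bulk RNA, fewer cells of a type and less RNA per cell cannot be told apart, and the part of these cells in the differences described here was not tested. Endothelial markers summed to 5, 3 and 3 tags in EGFP-Negative replicates 1, 2 and 3 and 0, 1 and 2 tags in the EGFP-Positive ones. *Kdr* was the most abundant of them over both groups together, and *Lyve1* in the EGFP-Negative libraries.

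*S100a4* was higher and *S100a10* lower in the EGFP-Positive than in the EGFP-Negative libraries, and the other 5 tested members were not called. Calls required an adjusted p below 0.05 in edgeR's quasi-likelihood test together with a fold change above 2. Of the 9 members, 7 had enough tags to be tested, with at least 49 tags in every library, so that none of them passed the filter through 1 group alone. Among these 7, 1 was called higher and 1 lower, where 3.44% and 6.37% of the 9334 tested genes were called higher and lower. Dropping the fold-change criterion gave 3 higher members (*S100a1*, *S100a4* and *S100a6*) and 1 lower member, where it gave 6.84% higher and 8.70% lower genes. The median log2 fold change of the 7 members was 0.31, beside -0.01 over all tested genes. The libraries of both groups lay fully apart, without overlap, for 5 of the 7 members, against 31.2% of all tested genes.

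**Figure D1:**
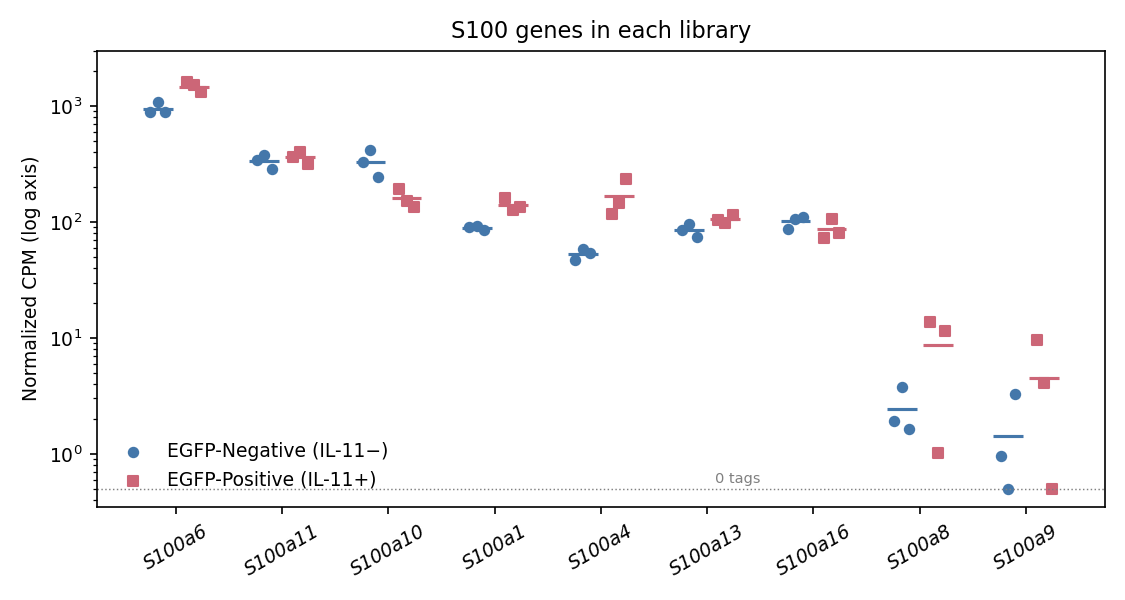
Normalized CPM (log axis) of the 9 *S100* genes in each library, with circles for EGFP-Negative and squares for EGFP-Positive libraries, ordered by mean level. Horizontal lines are group means (n = 3), points on the dotted line had 0 tags, and the *S100a4* squares (118 to 237) lie above its circles (46.8 to 58.4) while the *S100a10* squares (135 to 193) lie below its circles (243 to 415).

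*S100a4* encodes a cytosolic protein that binds non-muscle myosin and is linked to cell motility. Its tags numbered 49, 62 and 66 in EGFP-Negative replicates 1, 2 and 3 and 111, 145 and 249 in the EGFP-Positive ones. Each EGFP-Positive library lay above each EGFP-Negative library, and EGFP-Positive replicate 3 was the highest. The mean was 53.1 ± 5.89 normalized CPM over the IL-11- and 167 ± 62.4 over the IL-11+ libraries (SD, n = 3). The log2 fold change was 1.66 ± 0.232 (SE), with an adjusted p of 5.11e-05 in edgeR's quasi-likelihood test. Leaving out EGFP-Positive replicate 3 gave 1.32, still called (adjusted p = 0.000117, edgeR's quasi-likelihood test). In the annotation, 64% of the 50-nt windows near the start of the *S100a4* transcript are shared with the overlapping gene *Gm42674*, not analysed here, so the count of *S100a4* is less certain.

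*S100a6* encodes calcyclin, named for its link to the cell cycle, and was the most abundant member in every library, also per kilobase of transcript. Its tags numbered 934, 1146 and 1074 in EGFP-Negative replicates 1, 2 and 3 and 1508, 1488 and 1378 in the EGFP-Positive ones. The groups did not overlap. The mean was 951 ± 111 normalized CPM over the IL-11- and 1470 ± 146 over the IL-11+ libraries (SD, n = 3). The log2 fold change of 0.63 ± 0.169 (SE) was below the fold-change criterion, with a 95% interval of 0.28 to 0.99 and an adjusted p of 0.0142 in edgeR's quasi-likelihood test. That p became 0.0742 when EGFP-Negative replicate 1 was left out and 0.0584 when EGFP-Positive replicate 2 was. In a fit of all libraries with replicate number as block, which pairs libraries sharing a number, it was 0.000285 in the same test.

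*S100a1*, best known as a calcium sensor of heart and skeletal muscle, had a similar log2 fold change from far fewer tags. These numbered 95, 98 and 104 in EGFP-Negative replicates 1, 2 and 3 and 151, 126 and 140 in the EGFP-Positive ones. The EGFP-Negative libraries were close to each other, at 89.5 ± 3.63 normalized CPM (SD, n = 3), and all lay below the EGFP-Positive libraries, at 140 ± 17.2. The log2 fold change was 0.65 ± 0.169 (SE) with a 95% interval of 0.29 to 1.01 and an adjusted p of 0.0123 in edgeR's quasi-likelihood test. It was 0.55 with an adjusted p of 0.0609 when EGFP-Positive replicate 1 was left out. With replicate number as block it was 0.65 with an adjusted p of 0.00242 in the same test.

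*S100a10* encodes p11, a member that has lost calcium binding and forms a complex with annexin A2 at the plasma membrane, where it binds plasminogen and tissue plasminogen activator. Its tags numbered 346, 441 and 296 in EGFP-Negative replicates 1, 2 and 3 and 182, 150 and 142 in the EGFP-Positive ones. All EGFP-Positive libraries lay below all EGFP-Negative libraries, among which replicate 2 was the highest. The mean was 330 ± 86.2 normalized CPM over the IL-11- and 160 ± 29.5 over the IL-11+ libraries (SD, n = 3). The log2 fold change of -1.04 ± 0.202 (SE) lies near the fold-change criterion, with a 95% interval of -1.47 to -0.62 and an adjusted p of 0.00127 in edgeR's quasi-likelihood test. The call was lost when EGFP-Negative replicate 2 (-0.83, adjusted p = 0.0176) or EGFP-Positive replicate 3 (-0.93, adjusted p = 0.00683) was left out, because the fold change went below 2.

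*S100a11*, *S100a13* and *S100a16* were not called, with adjusted p of 0.767, 0.286 and 0.507 in edgeR's quasi-likelihood test. *S100a11*, whose protein binds annexin A1, had 346 to 402 tags in the EGFP-Negative and 329 to 397 in the EGFP-Positive libraries. These libraries overlapped, and the 95% interval of its log2 fold change of 0.10, -0.26 to 0.46, does not reach a 2-fold difference. Of the 50-nt windows near the start of its transcript, 70.5% are shared with annotated pseudogenes, not analysed here, so its count is less certain. *S100a13*, whose protein takes part in the release of FGF1 and IL-1α from cells, had 90 to 102 tags in the EGFP-Negative and 97 to 121 in the EGFP-Positive libraries. Its groups lay just apart after normalization, at 74.7 to 96.1 and 98.5 to 115 normalized CPM, with a log2 fold change of 0.31 (95% interval -0.06 to 0.67). *S100a16*, a broadly expressed member, had 92 to 134 tags in the EGFP-Negative and 69 to 105 in the EGFP-Positive libraries. Its groups overlapped, with a log2 fold change of -0.22 (95% interval -0.61 to 0.18).

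The calprotectin genes were rare in these sorted cells, and neither had enough tags to be tested. Tags of *S100a8* numbered 2, 4 and 2 in EGFP-Negative replicates 1, 2 and 3 and 13, 1 and 12 in the EGFP-Positive ones. EGFP-Positive replicates 1 and 3 lay above all EGFP-Negative libraries, whereas EGFP-Positive replicate 2 was the lowest of the 6 libraries. Without a filter its log2 fold change was 1.84 with an adjusted p of 0.0505 in edgeR's quasi-likelihood test, and that p was 0.137 when 10 tags in 1 library were enough, a filter that the gene passed only through EGFP-Positive libraries, where it was high. Tags of *S100a9* numbered 1, 0 and 4 in EGFP-Negative replicates 1, 2 and 3 and 9, 4 and 0 in the EGFP-Positive ones. The groups overlapped, and EGFP-Positive replicate 3, with 12 tags of *S100a8*, had 0 of *S100a9*. The 13 neutrophil and myeloid markers with a row had 44, 43 and 42 tags together in EGFP-Negative replicates 1, 2 and 3 and 43, 36 and 34 in the EGFP-Positive ones. The most abundant was *Cxcr2*, a chemokine receptor of neutrophils, with 14 to 23 tags per library and no call. *Retnlg*, a neutrophil gene, had 1 tag in the 6 libraries together, and *Ptprc*, which encodes CD45, had 0 to 7. The part of such cells in the *S100a8* tags was not tested.

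Of the other family members, *S100b*, a marker of enteric glia, had 3, 9 and 4 tags in EGFP-Negative replicates 1, 2 and 3 and 0 in each EGFP-Positive library. Against the floor of 3 tags per library it was at least 1.61-fold lower in IL-11+ cells, a bound that rests on EGFP-Negative replicate 2 and is 1.02 when that library is left out. It did not pass the filter, and without a filter its adjusted p was 0.00547 in edgeR's quasi-likelihood test. Of the glial markers, *Gfap* had 22 to 26 tags in EGFP-Negative and 0 to 1 in EGFP-Positive libraries, at least 7.05-fold lower, and passed the filter only through the EGFP-Negative group, where it was high. *Cdh19*, a gene of Schwann cells and enteric glia with too few tags to be tested, had 24, 9 and 36 tags in EGFP-Negative replicates 1, 2 and 3 and 2, 1 and 1 in the EGFP-Positive ones. The part of such cells in the *S100b* tags was not tested. *S100a7a* had 0 to 3 tags in EGFP-Negative and 0 to 5 in EGFP-Positive libraries, and *S100a14*, an epithelial member, had 1 tag in 1 EGFP-Negative library.

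The make-up of the family's tags is given here as a description. The 9 members together had 1881, 2230 and 1738 normalized CPM in EGFP-Negative replicates 1, 2 and 3 and 2633, 2551 and 2342 in the EGFP-Positive ones. *S100a6* supplied 48.9 ± 1.7% of the members' tags in IL-11- and 58.7 ± 2.35% in IL-11+ cells (SD, n = 3). For *S100a10* these shares were 16.7 ± 2.44% and 6.36 ± 0.843%, and for *S100a4* they were 2.74 ± 0.332% and 6.79 ± 2.97%. Ratios of tags within a library do not depend on the scaling between libraries. For *S100a10* over *S100a4* the ratio was 7.06, 7.11 and 4.48 in EGFP-Negative replicates 1, 2 and 3 and 1.64, 1.03 and 0.57 in the EGFP-Positive ones, 6.15-fold lower. For *S100a6* over *S100a10* it was 2.7, 2.6 and 3.63 and 8.29, 9.92 and 9.7, 3.15-fold higher. Both ratios were chosen after their values were seen and did not overlap between the groups. An exact test gave p = 0.10 for each, from which no conclusion is drawn because the ratios were chosen in this way.

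Per kilobase of transcript, the scale on which levels of different genes were compared, *S100a4* came later in the order of IL-11- than of IL-11+ cells. In IL-11- cells *S100a6* led with 1301 ± 152 normalized CPM per kb (SD, n = 3), followed by *S100a11* (657 ± 93.8) and *S100a10* (481 ± 126), whose libraries overlapped. *S100a1* (132 ± 5.36), *S100a13* (120 ± 15), *S100a4* (107 ± 11.8) and *S100a16* (90.1 ± 10.4) came next, each overlapping with its neighbour in the order. In IL-11+ cells *S100a6* (2017 ± 199) and *S100a11* (705 ± 87.7) again led. They were followed by *S100a4* (336 ± 125), *S100a10* (234 ± 43.1) and *S100a1* (208 ± 25.3), of which *S100a10* overlapped with both of its neighbours. The order is by group mean, and the lowest *S100a4* library and the highest *S100a1* library both stood at 236. *S100a13* (148 ± 12.3) and *S100a16* (77.4 ± 15.6) lay apart from their neighbours. *S100a8* and *S100a9* were last in both groups and overlapped with each other. Tags from the 5′ side may not grow in number with transcript length, which limits this comparison.

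Among the genes of proteins that bind S100 proteins, *Anxa1* and *Plat* were lower in the EGFP-Positive than in the EGFP-Negative libraries. Of 16 listed partner and receptor genes, 13 were tested, of which 3 were called lower, 10 were not called and 0 were called higher, with a median log2 fold change of -0.52. At an unadjusted p below 0.05 in edgeR's quasi-likelihood test 2 were higher and 7 lower, where 12.2% and 14.5% of all tested genes were. DESeq2 called 0 higher and 2 lower, beside 3.04% and 5.17% of all tested genes, and the shares for the calls by edgeR were 3.44% and 6.37%, as given above. *Anxa1* encodes annexin A1, the target of S100A11, and its tags numbered 509, 534 and 600 in EGFP-Negative replicates 1, 2 and 3 and 198, 221 and 191 in the EGFP-Positive ones. Its log2 fold change was -1.27 ± 0.162 (SE), with an adjusted p of 1.94e-05 in edgeR's quasi-likelihood test. *Plat* encodes tissue plasminogen activator, and its tags numbered 367, 272 and 356 in EGFP-Negative replicates 1, 2 and 3 and 90, 94 and 131 in the EGFP-Positive ones. Its log2 fold change was -1.51 ± 0.182 (SE), with an adjusted p of 1.11e-05 in the same test. For both genes all EGFP-Positive libraries lay below all EGFP-Negative libraries. *Anxa11*, the annexin partner of S100A6, was called lower on few tags (13 to 27 against 7 to 10, adjusted p = 0.049), and it passed the filter only through the EGFP-Negative group, where it was high, so that 2 of the 3 lower calls do not depend on that.

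*Anxa2* encodes the partner of S100A10, and its tags numbered 141, 177 and 221 in EGFP-Negative replicates 1, 2 and 3 and 190, 265 and 212 in the EGFP-Positive ones. After normalization the EGFP-Positive libraries lay above the EGFP-Negative ones, with a log2 fold change of 0.48 (95% interval 0.10 to 0.85). *Anxa2* was not called (adjusted p = 0.0831, edgeR's quasi-likelihood test). With replicate number as block the adjusted p was 0.0208 in the same test, and the fold change stayed below the criterion. The tags of *S100a10* over those of *Anxa2* gave 2.45, 2.49 and 1.34 in EGFP-Negative replicates 1, 2 and 3 and 0.958, 0.566 and 0.67 in the EGFP-Positive ones, without overlap. This ratio was chosen after its values were seen, so no conclusion is drawn from its exact test (p = 0.10). *Ahnak*, a scaffold bound by the S100A10 and annexin A2 complex, had a log2 fold change of -0.56 (adjusted p = 0.0573, and 0.00122 with the block), below the fold-change criterion. For *Myh9*, the non-muscle myosin bound by S100A4, the value was 0.31 (adjusted p = 0.277, and 0.155 with the block). *Anxa5* had 0.67 (adjusted p = 0.0128), below the fold-change criterion. Of the receptor genes, *Tlr4* had -0.52 (adjusted p = 0.115, and 0.046 with the block) and *Bsg* had 0.13 (adjusted p = 0.703, and 0.595 with the block). Neither of them was called in either fit. *Myd88*, the adaptor of Toll-like receptors, had -0.95 with an adjusted p of 0.000744, just below the fold-change criterion. *Ager*, which encodes RAGE, had too few tags to be tested, 3, 1 and 3 in EGFP-Negative replicates 1, 2 and 3 and 8, 2 and 6 in the EGFP-Positive ones. *Fgf1*, with 5 to 11 tags per library, and *Il1a*, with 0 to 2, also had too few.

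**Figure D2:**
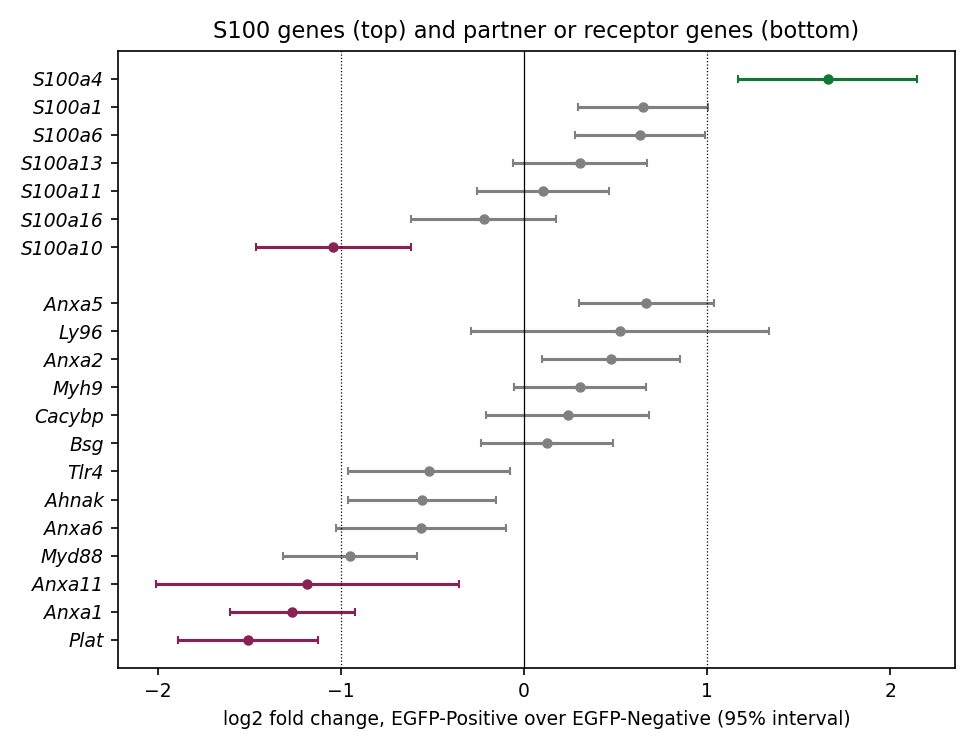
Log2 fold change (EGFP-Positive over EGFP-Negative) with its 95% interval for the 7 tested *S100* genes (top) and the 13 tested partner and receptor genes (bottom), green for called higher, purple for called lower and grey for not called. Dotted lines mark a fold change of 2, which *S100a4* (1.66), *S100a10* (-1.04), *Anxa11* (-1.18), *Anxa1* (-1.27) and *Plat* (-1.51) exceed with an adjusted p under 0.05.

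All 9 members lie on chromosome 3 in RefSeq's GRCm38.p6, in a group from *S100a1* to *S100a9* (90511034 to 90695721) and, beyond a region of epidermal genes, as the neighbouring protein-coding genes *S100a11* (93520496 to 93526288) and *S100a10* (93555117 to 93564645). *S100a4* (90603770 to 90606045, plus strand, 3 exons) and *S100a6* (90612894 to 90614414, plus strand, 3 exons) have *S100a5*, not analysed here, between them and had log2 fold changes of 1.66 and 0.63. *S100a11* and *S100a10* had 0.10 and -1.04. The ratio of *S100a10* to *S100a11* tags was 0.958, 1.1 and 0.855 in EGFP-Negative replicates 1, 2 and 3 and 0.529, 0.378 and 0.432 in the EGFP-Positive ones, again without overlap and again chosen after its values were seen. *S100a1* on the minus strand and *S100a13* on the plus strand lie head to head and had log2 fold changes of 0.65 and 0.31. The transcript starts used for their promoter windows are at 90514330 and 90514435, whereas the RefSeq bounds of *S100a13* begin at 90514233. The RefSeq bounds of *S100a1* and *S100a13* therefore overlap by 98 bases on opposite strands, and the tags were mapped in 1 orientation.

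**Figure D3:**
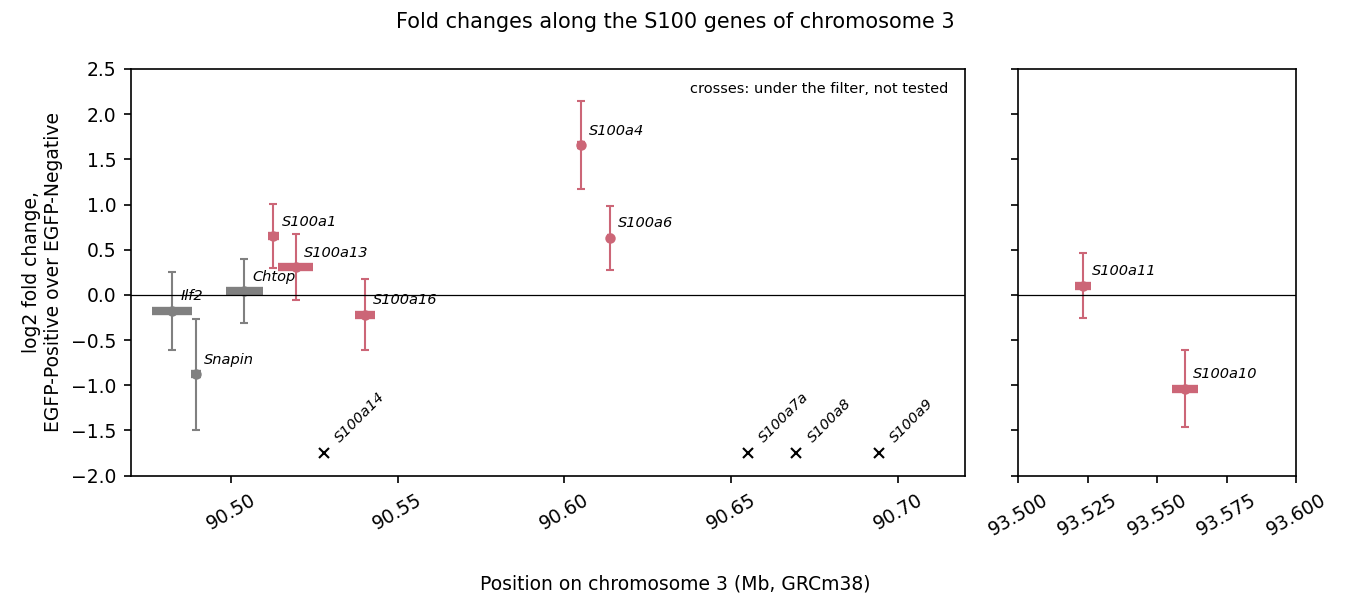
Log2 fold change (EGFP-Positive over EGFP-Negative, vertical axis) against position on chromosome 3 (Mb, GRCm38) for *S100* genes (red) and flanking genes (grey), with bars for the gene bodies and 95% intervals. Crosses are genes under the filter, drawn at an arbitrary height, and *S100a4* (1.66) and *S100a10* (-1.04) stand farthest from 0.

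Promoter windows of 300 bases, 250 before and 50 after the transcript start, were found in RefSeq (GRCm38.p6) for 8 of the 9 members, all but *S100a10*, in 9 windows. They were searched on both strands for the AP-1 letters TGANTCA, the STAT letters TTCNNNGAA and the C/EBP letters TTNNGCAA. Of 32851 promoter windows of this length, 7.81% held the AP-1, 8.3% the STAT and 10.8% the C/EBP letters. The AP-1 letters were found in 2 places before *S100a11*, at -136 and -38 from its start (chr3:93520360-93520366 and chr3:93520458-93520464), and once in a window of *S100a16*. The C/EBP letters were found once, before *S100a9*, and the STAT letters in none of the 9 windows, and no match overlapped another. The windows of *S100a1*, *S100a4*, *S100a6*, *S100a8* and *S100a13* held none of the 3 motifs, which says only that these letters are not in these windows.

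The 250 bases before the transcript start are shown for *S100a4*, the member called higher, for *S100a6*, the most abundant member, and for *S100a11*, which was not called and holds the AP-1 letters, given in capitals. All are from chromosome 3 of RefSeq's GRCm38.p6, plus strand, written 5′ to 3′, at chr3:90603520-90603769, chr3:90612644-90612893 and chr3:93520246-93520495.
S100a4: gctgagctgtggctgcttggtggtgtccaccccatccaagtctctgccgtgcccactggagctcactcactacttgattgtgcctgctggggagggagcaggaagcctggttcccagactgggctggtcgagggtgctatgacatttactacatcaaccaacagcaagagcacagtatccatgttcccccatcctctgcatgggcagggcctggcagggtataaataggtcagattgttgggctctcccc
S100a6: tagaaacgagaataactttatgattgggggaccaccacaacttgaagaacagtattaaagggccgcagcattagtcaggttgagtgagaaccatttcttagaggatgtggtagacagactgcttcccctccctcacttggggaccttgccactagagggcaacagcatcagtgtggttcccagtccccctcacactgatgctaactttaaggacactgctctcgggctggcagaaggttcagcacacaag
S100a11: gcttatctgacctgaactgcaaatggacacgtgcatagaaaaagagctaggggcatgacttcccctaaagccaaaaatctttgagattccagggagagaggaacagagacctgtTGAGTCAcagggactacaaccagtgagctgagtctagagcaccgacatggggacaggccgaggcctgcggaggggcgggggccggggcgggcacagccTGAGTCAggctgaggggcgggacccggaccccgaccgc

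Genes with the pattern most like that of a member were sought among 5062 tested genes by Pearson's r of log2 normalized CPM over the 6 libraries, as a description without a test. For *S100a6*, the most abundant member, these were *LOC108167643* (r = 0.997), *Hk2* (r = 0.997), which encodes the glycolytic enzyme hexokinase, and *Loxl2* (r = 0.995), which encodes a collagen-crosslinking enzyme. For *S100a4*, the tested member with the largest log2 fold change, they were *Tomm6*, *Uqcc2* and *Fzd1*, each with r = 0.989. Between members, r was 0.95 for *S100a1* and *S100a6* and -0.9 for *S100a4* and *S100a10*, over the same 6 libraries, which form 2 groups.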

How the data were processed

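The authors deposited tag counts for each gene symbol in 6 libraries, and their methods name 3 mice. Per the methods and the submitters' processing notes, reads were trimmed with Cutadapt 1.18 and aligned by Bowtie2 2.2.5 to mm10 RefSeq RNA in 1 orientation. The handling of tags that fit several genes and molecular identifiers are not given in the sources used here. The floors and intervals make no separate allowance for either. The floor is a fixed number of tags, whereas the intervals come from edgeR's quasi-likelihood fit and include variation between replicate libraries.

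The 9334 genes with 10 tags or more in 3 or more libraries, which hold 97.6 to 98.2% of tags, were tested in R 4.3.3 with edgeR 4.0.16 (TMM, glmQLFit, glmQLFTest, Benjamini-Hochberg adjustment over all tested genes). Each adjusted p comes from this test unless another is named. The thresholds for a call, an adjusted p of 0.05 and a 2-fold change, are those of the methods, which normalize with TCC. As printed, the methods exclude genes with 10 tags or more as low, which was read as keeping them, and name no number of libraries. SE is the log2 fold change divided by the square root of the F statistic. The procedure was also tested on simulated data.

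Replicate numbers come from the labels. Libraries sharing a number deviated together across 5064 genes (r = 0.23, 0.2 and 0.27), so the number was used as a block in an alternative fit. Replicates differed by more than sampling noise (chi-square per degree of freedom 2.56 to 6.11).

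Transcript lengths, exons and 50-nt windows (first 300 nt) come from GENCODE mouse M21 (GRCm38), positions and promoters from RefSeq GRCm38.p6. The members and all gene lists were chosen with earlier results of these data known. Named genes are the members, other *S100* symbols, listed partner, receptor, EF-hand and cell type marker genes, 3 genes most like each of 2 members, neighbours on chromosome 3 and *Il11*, and some listed genes are not reported here. Alternatives were RLE or library size for scaling, DESeq2 1.42.0, looser filters, no fold-change criterion, the block, and leaving out each library in turn on the same 9334 genes.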

Additional observations from a re-analysis of the deposited data

How the results depend on the processing

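Leaving out each library in turn gave 267 to 329 higher and 483 to 580 lower genes, with 1 *S100* member called higher in each of these 6 fits and 0 to 1 called lower. The lost call was that of *S100a10*, when EGFP-Negative replicate 2 (-0.83) or EGFP-Positive replicate 3 (-0.93) was left out. The log2 fold change of *S100a11* ranged from -0.01 to 0.21 over these fits, and it was -0.01 when EGFP-Negative replicate 3 was left out, where the cause was not tested. Dropping the fold-change criterion gave 638 higher genes and 3 higher members, because *S100a1* (0.65) and *S100a6* (0.63) lie below that criterion. The fit with replicate number as block gave 337 higher and 648 lower genes, and the pairing changed no call among the members. With RLE, library size only, DESeq2 or looser filters, 1 member was called in each direction, with values of 1.59 to 1.7 for *S100a4* and -1.12 to -1 for *S100a10*. Scaling by library size only moved the median of all tested genes to -0.1. Over the 7 tested members and all alternatives, 86 values kept direction and side of the threshold, 2 lost the call, 2 gained it and 1 changed sign. Depth limits *S100a8*, *S100a9*, *S100a7a*, *S100a14* and *S100b*.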

Other observations

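Other cytosolic EF-hand proteins were covered by 8 genes, all tested, of which 0 were called in either direction by edgeR's quasi-likelihood test or DESeq2. At an unadjusted p below 0.05 in edgeR's quasi-likelihood test 1 was higher and 0 were lower, and the median log2 fold change was 0.05. Of all tested genes, 3.44% were called higher and 6.37% lower (3.04% and 5.17% by DESeq2), and 12.2% and 14.5% at the unadjusted p, so that few calls would be counted in any 8 genes. *Sri*, which encodes the calcium-binding protein sorcin, had a log2 fold change of -0.36 (adjusted p = 0.237, edgeR's quasi-likelihood test), and *Chp1* had 0.29 (adjusted p = 0.283).

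The tested genes nearest to the *S100* group on chromosome 3 were *Ilf2*, *Snapin* and *Chtop*, and none of these 3 was called. Tags of *Snapin*, which encodes a protein of vesicle fusion, numbered 36, 28 and 56 in EGFP-Negative replicates 1, 2 and 3 and 17, 16 and 25 in the EGFP-Positive ones. Its log2 fold change was -0.88, below the fold-change criterion, with an adjusted p of 0.0495 in edgeR's quasi-likelihood test. *Ilf2* had a log2 fold change of -0.18 (adjusted p = 0.641), and *Chtop*, the gene next to *S100a1*, had 0.04 (adjusted p = 0.911). Between *S100a9* and *S100a11*, 6 genes with a row, among them *Tchh* and *Sprr2a1*, had at most 5 tags in any library. The 9 epithelial markers with a row had 32, 26 and 65 tags together in EGFP-Negative replicates 1, 2 and 3 and 9, 11 and 24 in the EGFP-Positive ones. The most abundant was *Lgals4*, the only tested one. It was called lower but passed the filter only through the EGFP-Negative group, where it was high. *Epcam* had 0 or 1 tag per library.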
